A study of Macaca mulatta with 20 samples.

Results

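The array annotation gave 47 genes of the WNT pathway among 14132 genes with a symbol of their own. They were taken by name: every symbol that begins with WNT, FZD, SFRP, DKK, DVL, AXIN or RSPO and a number, those that begin with TCF7, the receptors LGR4 to LGR6, and LEF1, CTNNB1, LRP5, LRP6 and WIF1. Membership was set by names and no measured value, while the probe set of each gene was chosen by its signal, as given below. The genes found were 17 WNT ligands, 9 frizzled receptors, the co-receptors LRP5 and LRP6, and 9 secreted antagonists. A further 5 belonged to the R-spondin system (RSPO1, RSPO2, RSPO3, LGR4 and LGR5), 2 acted in the cytoplasm (AXIN2 and DVL2), and 3 were nuclear factors (TCF7, TCF7L1 and TCF7L2). CTNNB1, which encodes beta-catenin, and LEF1 were not analysed here. The 47 genes had 87 probe sets, and each gene was represented by its probe set with the highest mean log2 of signal + 16 over all arrays. For 21 genes there was more than 1 probe set to choose from.

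The tissue was the corpus luteum of female rhesus macaques, the progesterone-secreting gland left in the ovary after ovulation. Human chorionic gonadotropin (hCG), a placental hormone that acts through the LH receptor, was injected into muscle from luteal day 9 to imitate early pregnancy. Injections were given 2 times per day, at doses that climbed from 15 to 2880 IU in 9 steps. The baseline group had no hCG and was collected on luteal day 10. Treated groups were collected on luteal day 10 after 1 day of hCG, day 12 after 3 days, day 15 after 6 days and day 18 after 9 days. Each of these 5 groups had 4 arrays, and no genotype, age or strain is given in the labels. Whether the arrays of a group came from different animals is not stated, so p-values cover the spread between these samples, which may be partly technical. Luteal day, days of hCG and dose rose together after day 10, so they cannot be told apart in any comparison with the later groups. A late untreated group was not analysed here.

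WNT proteins are secreted ligands that bind frizzled receptors at the cell surface. With LRP5 or LRP6 as co-receptor, they stop the destruction complex, built on axin, from removing beta-catenin, which then acts in the nucleus with TCF and LEF factors. Other WNT ligands, WNT5A among them, mostly use routes without beta-catenin, through planar cell polarity and calcium. SFRP proteins and WIF1 bind the ligands, DKK1 binds the LRP co-receptors, and R-spondins act through LGR receptors to keep frizzled receptors on the membrane. In mice the receptor FZD4 is needed for a functional corpus luteum.

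The median signal of an array was 31.6 to 46.4 intensity units. Between 28.7% and 36.5% of an array's probe sets gave less than 16 units. All 6 measured markers of luteal steroidogenic cells were above the array median on all 20 arrays, as were all 9 of endothelium and all 5 of smooth muscle. Of the luteal markers, 1 passed as lower in limma on hCG days 15 and 18 against untreated, and from hCG day 10 to day 18. HSD3B2 read 6740 to 9501 in untreated tissue and 1742 to 2824 on hCG day 18. On the third principal component 3 arrays stood apart, namely replicate 2 of the untreated group, replicate 1 of hCG day 12 and replicate 2 of hCG day 15. They lay at -54.8 to -50.2, against -4.82 to 23.6 for the other 17 arrays, and their signal of the matrix gene LUM was 558 to 1660, against 7.53 to 152. Among the other stromal markers, DPT was also higher in these arrays than in the rest. DCN, COL3A1, OGN and TCF21 lay within the range of the other 17 arrays. COL1A1, COL1A2, ASPN and FBLN1 exceeded that range in only 1 of the 3 arrays each. Of the 47 WNT pathway genes, 11 (23.4%) had the highest signal of their group in at least 2 of these arrays, against 20.7% of all genes, and 5 (10.6%) had the lowest, against 19.4%. Without the 3 arrays the counts of changed genes given below were 2 for the test over the 5 groups, 2 for hCG day 18 against untreated and 5 for hCG day 18 against hCG day 10, where WNT7A was added. Relative to untreated, the median over all probe sets shifted by -0.115, -0.143, -0.113 and -0.0493 (log2) on hCG days 10, 12, 15 and 18. Changes are given without centring on these shifts, except where median-centring is named.

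In these corpora lutea 22 of the 47 genes were in the upper 50% of probe sets by mean log2 signal. Signals above the array median on all 20 arrays were found for 13 of the 47 genes: the ligands WNT5A and WNT10B, the receptors FZD1, FZD4, FZD6 and FZD7, the antagonists DKK3, SFRP1 and SFRP4, the R-spondin receptor LGR4, and DVL2, TCF7L1 and TCF7L2. A further 17 genes stayed below the array median on every array, 11 of them among the 17 ligands, and 17 genes lay on both sides. Such shares were not counted over all genes. The median signal per gene ran from 1.68 to 4841 among the ligands, from 8.35 to 598.5 among frizzled receptors and from 3.18 to 2169 among antagonists. Signals of different probe sets also depend on their probes, so these ranges show what was detected and are no ranking of RNA amounts. A dim probe set puts only a loose limit on a change, since the log2 of signal + 16 compresses signals under 16.

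**Figure D1:**
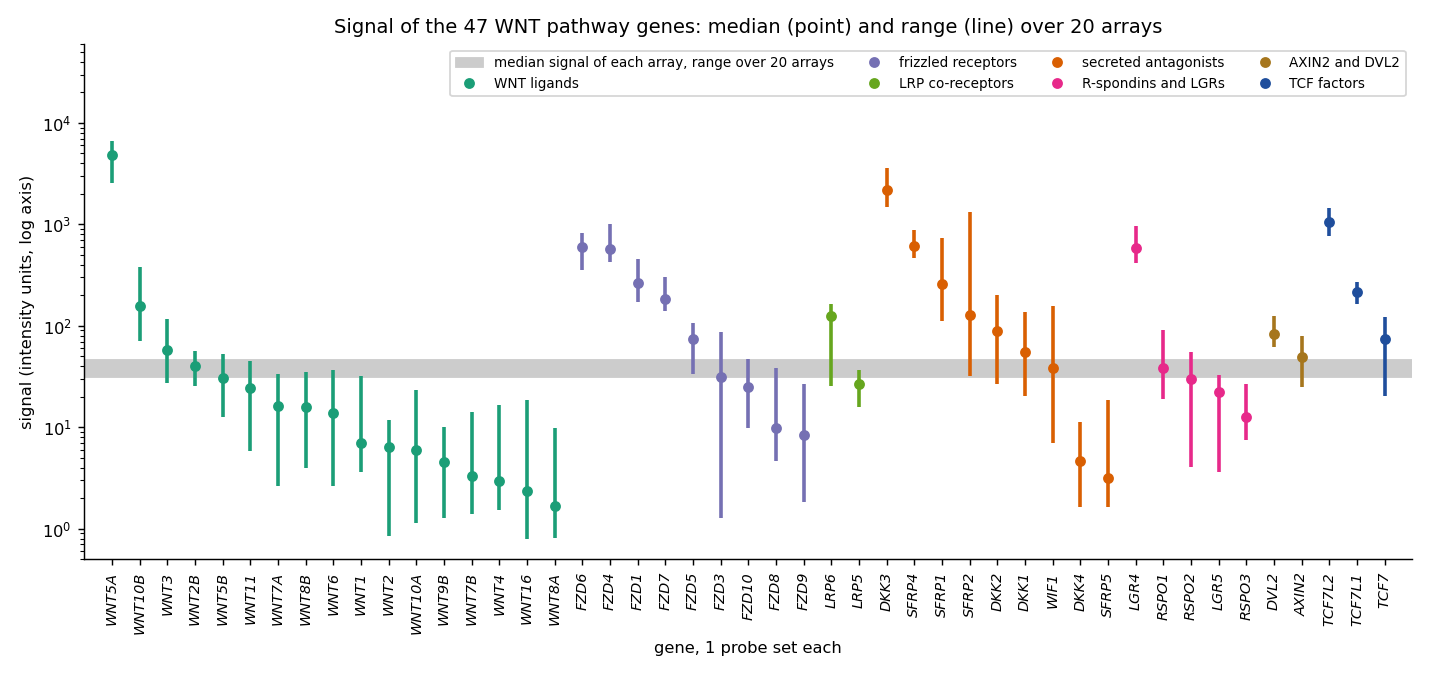
Signal of each of the 47 WNT pathway genes in intensity units on a log axis, ordered by role, with the median over 20 arrays as a point and the lowest to highest array as a line. The grey band spans the array medians, 31.6 to 46.4 units. WNT5A and DKK3 lie far above it, and 11 of 17 ligands do not rise above their array's median on any array.

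At the probe set used for each gene, 5 of the 47 genes passed a test between groups. TCF7 fell by hCG day 18, SFRP1 rose, and between hCG day 10 and hCG day 18 DKK3, SFRP4 and TCF7 fell while FZD6 rose. In limma's moderated F test over the 5 groups, 2 genes passed at an adjusted p under 0.05, TCF7 and DKK3, against 7.01% of all genes with 1 probe set each. At an unadjusted p under 0.05 the F test had 13 of 47 genes (27.7%), against 22.9% of all genes. Over the F test and 8 pairwise comparisons 5 genes passed at least 1 test, 10.6% of the 47, and the share among all 14132 genes was 11.6%. The 47 genes were thus called at about the background rate. A lower signal can come from fewer cells of a type or from less RNA per cell, and whole tissue cannot tell these apart.

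By comparison, 0 of 47 genes passed in limma on hCG day 10 against untreated, where 1.54% of all genes did. At an unadjusted p under 0.05 there were 7 genes, or 14.9%, against 14.6% of all genes. On hCG day 12, 0 genes passed (0.453% of all genes did) and 8 were under an unadjusted 0.05, or 17.0%, against 11% of all genes. On hCG day 15, 0 passed (1.97% of all genes) and 9 were under an unadjusted 0.05, or 19.1%, against 14.6%. On hCG day 18, 2 genes passed (6.09% of all genes did), 1 higher and 1 lower, against 2.78% and 3.31% of all genes. At an unadjusted p under 0.05 there were 12 genes, 25.5%, against 21.1%. Between hCG day 10 and hCG day 18, 4 genes passed (7.97% of all genes did), 1 higher and 3 lower, against 2.87% and 5.09% of all genes. Unadjusted there were 11 genes, 23.4%, against 23.2%. None of the 3 steps between neighbouring collection days had a passing gene in limma: from day 10 to 12 the background was 0.722%, and 5 genes were under an unadjusted 0.05 (10.6%, against 10.1% of all genes). For the steps to day 15 and to day 18 the background was 0, and 3 genes in each were under an unadjusted 0.05 (6.38%, against 6.54% and 8.45%). The median log2 change of the 47 genes against untreated was -0.08, 0.03, -0.01 and -0.06 for hCG days 10, 12, 15 and 18. The median over all genes was -0.01, -0.01, -0.03 and -0.03.

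**Figure D2:**
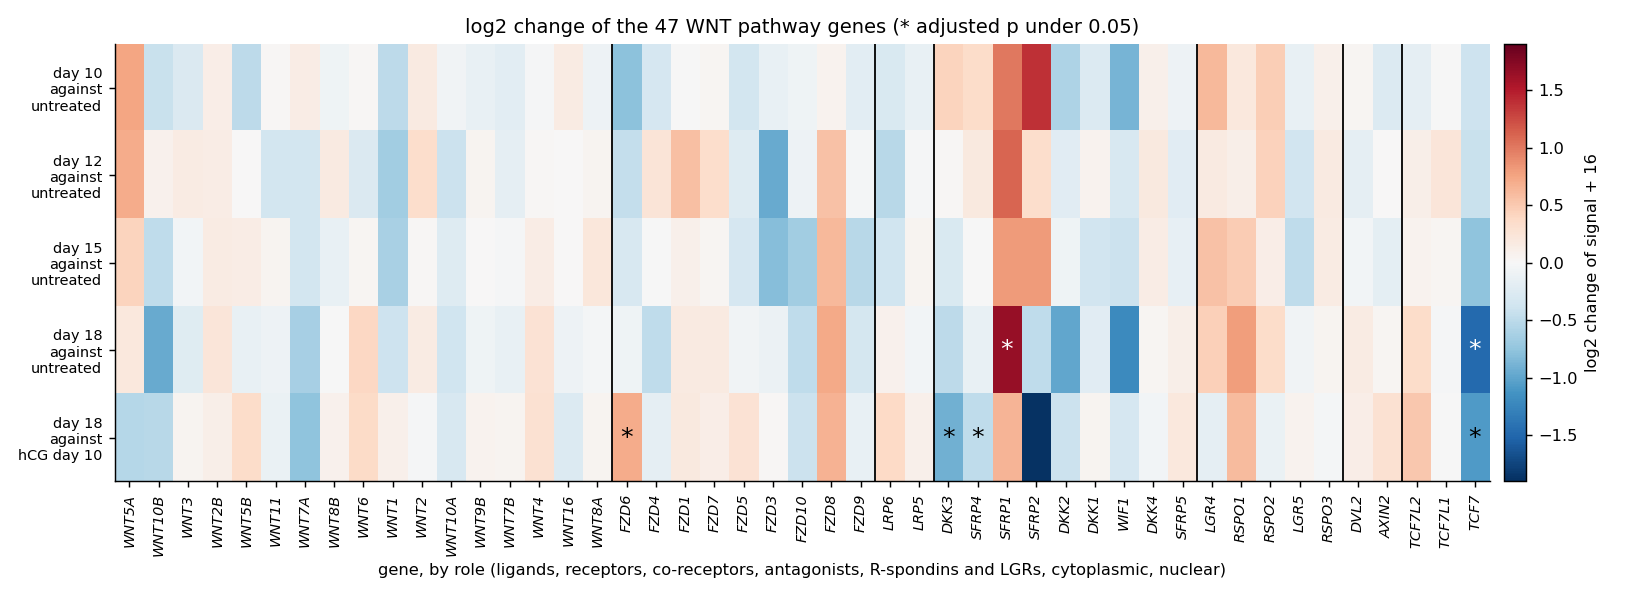
Log2 change of signal + 16 for the 47 WNT pathway genes (columns, by role) in 5 comparisons (rows), red for higher and blue for lower in the first group named. Stars mark an adjusted p under 0.05 in limma: SFRP1 and TCF7 on hCG day 18 against untreated, and FZD6, DKK3, SFRP4 and TCF7 on hCG day 18 against hCG day 10. The strongest colour of all, SFRP2 on hCG day 18 against hCG day 10 with a log2 change of -1.88, carries no star.

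Among the ligands no gene passed a test at the probe sets used. WNT5A, the ligand with the highest signal, acts mainly through ROR2 and frizzled receptors outside the beta-catenin route. Its untreated signals were 2577, 3262, 4397 and 3081, and those of hCG day 10 were 5441, 5282, 6604 and 4780. The hCG day 12 arrays gave 5889, 5625, 4902 and 4981. Later signals were 5176, 3106, 5598 and 4065 at day 15, then 3598, 3203, 3391 and 5164 at day 18. All arrays of hCG days 10 and 12 lay above all untreated arrays, and those of days 15 and 18 overlapped the untreated ones. The log2 change was 0.75 ± 0.19 (SE, 4 arrays a group) on hCG day 10, with an adjusted p of 0.082 in limma, and 0.70 ± 0.19 on day 12, with an adjusted p of 0.16. Median-centring brought the first to an adjusted p of 0.037, the upper 50% of probe sets alone to 0.048, and leaving out hCG day 15 replicate 2 to just below the threshold (0.05 when rounded).

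This WNT5A probe set had a log2 change from hCG day 10 to day 18 of -0.54 ± 0.19 (adjusted p = 0.13 in limma). The other 2 probe sets of WNT5A did pass in that comparison. The first had mean signals of 1457 on hCG day 10 and 722.2 on day 18, with a log2 change of -0.997 ± 0.274 (adjusted p = 0.04). The second went from 671.1 to 252.8, with a log2 change of -1.33 ± 0.35 (adjusted p = 0.03). All 3 probe sets had higher means on hCG day 10 than in untreated tissue, with log2 changes of 0.75, 0.92 and 0.85, none past the threshold.

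WNT10B, a ligand of the beta-catenin route, had untreated signals of 245, 172, 195.2 and 162.7 and hCG day 18 signals of 96.5, 92.5, 103.6 and 71.7. These 2 groups did not overlap, but the log2 change of -0.96 ± 0.29 had an adjusted p of 0.07 in limma. The intermediate groups were spread widely, from 95.1 to 182 on hCG day 10, 108.4 to 384 on day 12 and 86.0 to 190.1 on day 15. The adjusted p of WNT10B was 0.013 when only the 8 arrays of the 2 groups were fitted, and 0.03 and 0.036 without hCG day 12 replicates 3 and 4. WNT5B, a close relative of WNT5A, was dim, at 27.0 to 43.1 in untreated tissue and 12.8 to 24.9 on hCG day 10. Its log2 change was -0.49 ± 0.18, with an adjusted p of 0.24.

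The other ligands had small or unsteady values. WNT3 had a median signal of 58.1 with single arrays from 27.5 to 116, and WNT2B a median of 40.4. WNT1, WNT2, WNT4, WNT6, WNT7A, WNT7B, WNT8A, WNT8B, WNT9B, WNT10A and WNT16 were below the array median on all arrays, and WNT11 was above it on 1. WNT4, which is needed for ovary development, had a median signal of 2.98 and one array, hCG day 18 replicate 4, at 16.6. Over the 17 ligands the median log2 change on hCG day 18 against untreated was -0.10, and 5 of 17 changes were above 0.

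Of the 9 frizzled receptors, FZD6 passed a test. FZD6, a receptor known from planar polarity, had untreated signals of 562.4, 829.7, 724.1 and 748.5 and hCG day 10 signals of 470.8, 362.7, 352.4 and 445.3. After that the arrays read 541.1, 418.2, 476.4 and 656.6 on day 12, then 740.5, 747.7, 378.1 and 509.1 on day 15, and 635.7, 634.6, 731.1 and 672.5 on day 18. Every hCG day 10 array lay below every untreated and every hCG day 18 array, while the untreated and hCG day 18 arrays overlapped. FZD6 rose from hCG day 10 to day 18 by 0.70 ± 0.19 (log2, SE, 4 arrays a group; adjusted p = 0.04 in limma), a 1.62-fold difference on the scale of signal + 16.

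Against untreated, FZD6 on hCG day 10 had a log2 change of -0.79 ± 0.19 with an adjusted p of 0.06. The call from day 10 to day 18 ended when any 1 of 8 arrays was left out: untreated replicate 3, hCG day 10 replicates 2, 3 and 4, or any hCG day 18 array (adjusted p = 0.05 to 0.12). It also ended with median-centring (adjusted p = 0.085) and with a pseudocount of 1 (adjusted p = 0.073). The value on hCG day 10 against untreated passed without hCG day 15 replicate 2 (adjusted p = 0.048) or replicate 3 (adjusted p = 0.026).

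FZD4, the receptor required for luteal function in mice, did not pass. Its untreated signals were 655.8, 854.8, 581.9 and 583.9, against 485.3, 522.5, 554.3 and 555 on hCG day 10 and 473, 531.3, 458.8 and 423 on day 18. Both treated groups lay below all untreated arrays, and hCG day 12, at 685.4 to 1002, lay above all hCG day 10 arrays. The log2 change was -0.31 ± 0.18 on hCG day 10 (adjusted p = 0.49), 0.24 ± 0.18 on day 12 (adjusted p = 0.65) and -0.48 ± 0.18 on day 18 (adjusted p = 0.16). The change between hCG days 10 and 12 was 0.55 ± 0.18 (adjusted p = 0.25). A second, dimmer FZD4 probe set had log2 changes of -0.53 on day 12 against untreated and 0.03 between hCG days 10 and 12. No FZD4 comparison passed after adjustment over all probe sets. Unadjusted, limma's F test over the 5 groups gave FZD4 a p of 0.00533 (adjusted p = 0.086).

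FZD10 was dim, with untreated signals of 34.6, 40.6, 19.7 and 47.1 and hCG day 15 signals of 9.88, 12.8, 21.3 and 21.7. Its log2 change on hCG day 15 was -0.66 ± 0.18 (adjusted p = 0.079 in limma), and without untreated replicate 3 the adjusted p was 0.022. FZD1 and FZD7 had their highest means on hCG day 12, at 365.3 ± 69.8 and 224.8 ± 53.0 (SD, 4 arrays), against 239 ± 22.3 and 171.5 ± 12.4 in untreated tissue. Neither difference passed (adjusted p = 0.29 and 0.49). The log2 change on hCG day 12 was 0.57 at the FZD1 probe set used, and -0.05, 0.12 and 0.26 at its others. For FZD7 it was 0.34 at the probe set used and 0.33 at the other. FZD8 was at 4.61 to 9.61 in untreated tissue and at 10.3 to 38.8 on hCG day 18, with a log2 change of 0.72 ± 0.28 (adjusted p = 0.19). FZD3 ranged from 1.29 to 87.7 over the 20 arrays, FZD5 from 33.3 to 106.3, and FZD9 from 1.84 to 26.6.

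Neither co-receptor passed. LRP6, which is phosphorylated when WNT binds, read 138.6, 127.3, 131.9 and 115 in untreated tissue and 165.6, 125, 122.6 and 138.3 on hCG day 18. The groups between were more spread, with hCG day 12 at 25.4 to 147.7 and hCG day 15 at 47.9 to 139.3. The interval of the LRP6 log2 change on hCG day 18 ran from -0.66 to 0.84 (95%), so sizeable changes in either direction remain possible. LRP5 was below the array median on all arrays, at 15.97 to 36.8.

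**Figure D3:**
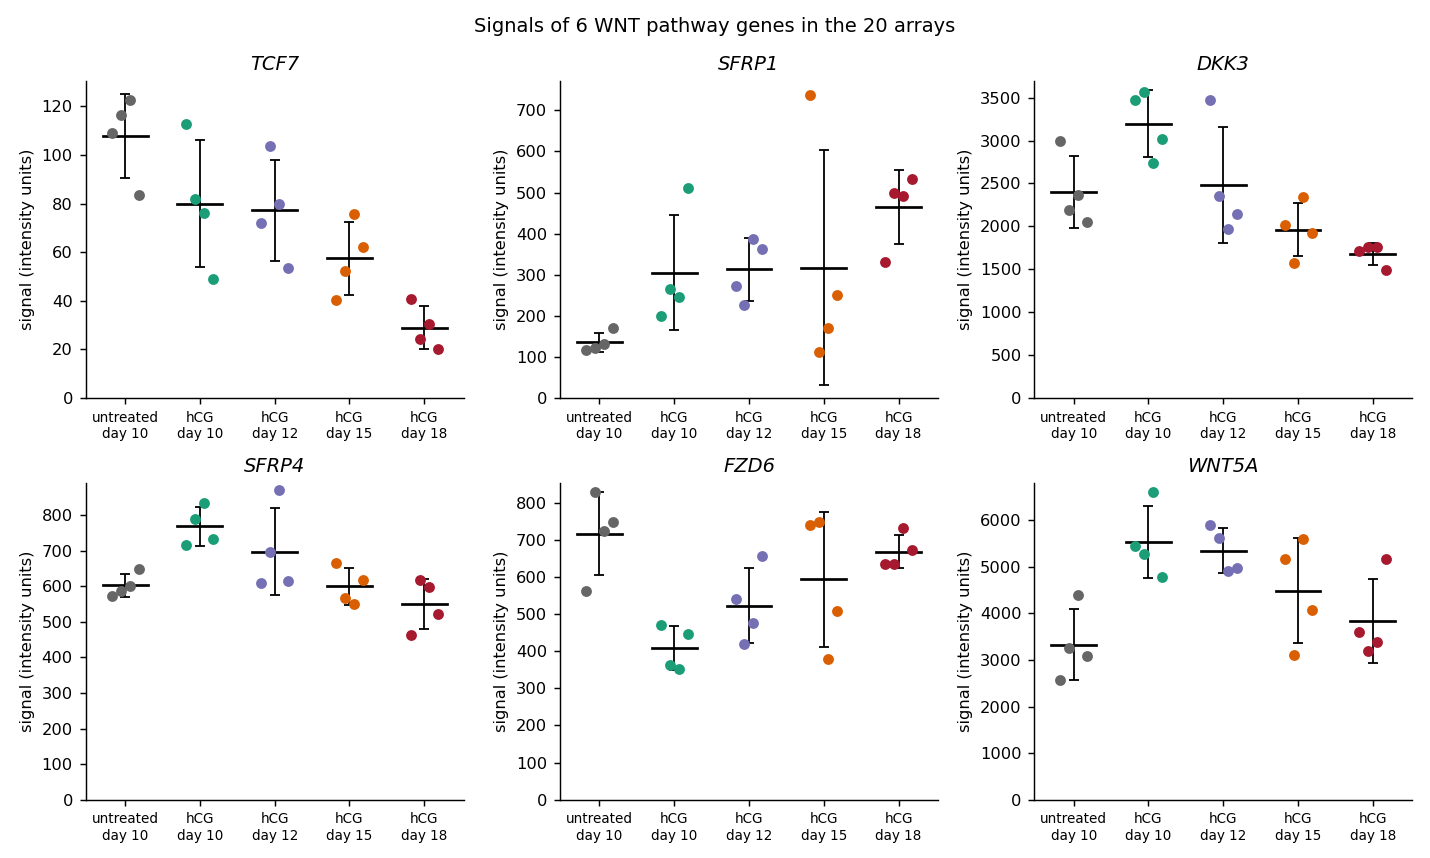
Signal in intensity units of TCF7, SFRP1, DKK3, SFRP4, FZD6 and WNT5A in each of the 20 arrays (points), with the group mean (thick line) and SD (bars), for the 5 groups of 4 arrays. TCF7 is lowest on hCG day 18 and SFRP1 lowest in untreated tissue, DKK3 and SFRP4 are lower on hCG day 18 than on hCG day 10, and FZD6 is lowest on hCG day 10. WNT5A had no passing comparison at this probe set.

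Of the 9 genes listed as antagonists, 3 passed at least 1 test, where 11.6% of all genes did. These 3 were SFRP1, DKK3 and SFRP4, and the list counts DKK3 although it is a divergent Dickkopf. None of the 3 calls held when probe sets were averaged (adjusted p = 0.11, 0.42 and 0.74 in limma). SFRP1, a secreted protein that binds WNT ligands and frizzled receptors, had untreated signals of 117.9, 122, 132.6 and 169.8. The hCG day 10 arrays read 198.4, 264.1, 246.6 and 510.3, and those of day 12 read 273.3, 226.9, 388.1 and 363.5. The later arrays read 736.1, 111.5, 171 and 250.9 at day 15, and 332.1, 499.3, 490.5 and 533.7 at day 18. All arrays of hCG days 10, 12 and 18 were above all untreated arrays, and hCG day 15 ran from below the untreated arrays to the highest value of the series. SFRP1 rose by 1.65 ± 0.39 on hCG day 18 against untreated (log2, SE; adjusted p = 0.018 in limma), 3.15-fold on the scale of signal + 16.

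For the earlier days SFRP1 had log2 changes of 1.01, 1.10 and 0.81, with adjusted p-values of 0.27, 0.31 and 0.42. Its other 2 probe sets had log2 changes of 1.48 and 1.17 on hCG day 18, neither past the threshold (adjusted p = 0.19 and 0.29). The mean over the 3 probe sets gave an adjusted p of 0.11. Leaving out untreated replicate 1 or 2, or hCG day 18 replicate 2 or 4, gave adjusted p-values of 0.051 to 0.056. The summed signal of 10 measured stromal markers was 12442 to 16925 in untreated tissue and 9389 to 16629 on hCG day 18. None of the 10 passed in that comparison in limma (1 was under an unadjusted p of 0.05), and the part of stromal cells in the SFRP1 result was not tested.

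DKK3, a divergent member of the Dickkopf family, fell from hCG day 10 to day 18. The hCG day 10 arrays read 3475, 3566, 2735 and 3017, and the hCG day 18 arrays 1716, 1760, 1755 and 1494. Untreated arrays lay between, at 3001, 2196, 2372 and 2052, and overlapped hCG day 10 but not hCG day 18. On hCG day 12 the signals were 3470, 2353, 1971 and 2142 and on day 15 they were 2011, 1579, 2339 and 1924. DKK3 fell by 0.92 ± 0.17 (log2, SE; adjusted p = 0.0028 in limma), a 1.89-fold difference, and the F test over the 5 groups gave an adjusted p of 0.018. Against untreated the log2 change was 0.42 ± 0.17 on hCG day 10 (adjusted p = 0.31) and -0.50 ± 0.17 on day 18 (adjusted p = 0.12).

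The 6 probe sets of DKK3 disagreed. Of these, 3 had negative log2 changes from hCG day 10 to day 18, of -0.92, -1.10 and -0.60, and the first 2 passed. The other 3 had changes of 0.42, 0.45 and 0.07, none past the threshold. With the mean over all 6, DKK3 had a log2 change of -0.28 and an adjusted p of 0.42, so its call rests on which probe sets represent the gene. It held when each array was left out in turn.

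SFRP4, a relative of SFRP1, also fell from hCG day 10 to day 18, by a smaller amount. The hCG day 10 signals were 716.1, 789.6, 835.3 and 734.5, and the hCG day 18 signals 462.8, 616.9, 599.3 and 522.1. Those of untreated tissue, 574 to 648.2, lay below all hCG day 10 arrays and overlapped hCG day 18. SFRP4 fell by 0.48 ± 0.13 (log2, SE; adjusted p = 0.031 in limma), a 1.39-fold difference. The call ended without hCG day 10 replicate 2, 3 or 4 or hCG day 18 replicate 1 or 4 (adjusted p = 0.05 to 0.11). It also ended with median-centring (adjusted p = 0.064), a pseudocount of 1 (adjusted p = 0.074), the 8 arrays fitted alone (adjusted p = 0.084) and the mean over its 4 probe sets (adjusted p = 0.74). Of those probe sets, one had a change of the opposite sign, 0.62.

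The other antagonists varied within groups as much as between them. SFRP2, named here after its values were seen, read 136.7, 994.4, 352 and 199 on hCG day 10 and 120.2, 157.2, 60.2 and 1328 on day 15, against 63.8 to 225.3 in untreated tissue and 32.4 to 120.7 on hCG day 18. Its log2 change from hCG day 10 to day 18 was -1.88 ± 0.73, the largest of the 47 in size, with an adjusted p of 0.17 in limma. WIF1 spanned 7.04 to 155.2 within the untreated group alone, and DKK2 spanned 49.0 to 201.1 there. DKK1, the classical inhibitor of the LRP co-receptors, had group means of 65.3, 61.6, 69.0, 46.4 and 52.9 in order of collection, beginning with untreated, and none of its comparisons passed. DKK4 and SFRP5 were below the array median on all arrays. Over the 9 antagonists the median log2 change from hCG day 10 to day 18 was -0.32, with 3 of 9 above 0, and over all genes it was -0.01.

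No gene of the R-spondin system passed. LGR4, an R-spondin receptor, had signals of 521.1, 421.3, 464.4 and 494.6 in untreated tissue and 763.2, 814.9, 573.6 and 813.5 on hCG day 10. On hCG day 18 it read 602.3, 543.4, 803 and 692.7. Both treated groups lay above all untreated arrays, with log2 changes of 0.61 ± 0.20 (adjusted p = 0.17 in limma) and 0.45 ± 0.20 (adjusted p = 0.26). Leaving out hCG day 15 replicate 3 brought the first to an adjusted p of 0.048. The second LGR4 probe set, which is dim, had a log2 change of -0.19 on hCG day 10.

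RSPO1, a secreted R-spondin with a role in ovarian determination, read 24.7, 24.5, 18.9 and 60.8 in untreated tissue and 38.3, 90.8, 78.2 and 57.4 on hCG day 18. The groups overlapped through untreated replicate 4. The RSPO1 log2 change was 0.80 ± 0.25 (adjusted p = 0.088), and it was called without untreated replicate 4 (adjusted p = 0.017) or hCG day 18 replicate 1 (adjusted p = 0.041). RSPO2 was at 15.4 to 25.3 in untreated tissue and 28.2 to 35.8 on hCG day 10, without overlap, but with an adjusted p of 0.51. RSPO3 and LGR5 were below the array median on all arrays at the probe sets used. For LGR5 the log2 changes against untreated were -0.48 on hCG day 15 and -0.07 on day 18. Its other probe set, also dim, had changes of 0.70 (adjusted p = 0.092 in limma) and 0.64 (adjusted p = 0.076).

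TCF7 gave the smallest p-value of the 47 genes. It encodes T cell factor 1, a DNA-binding partner of beta-catenin that is also abundant in T lymphocytes. Its signals were 109.1, 116.6, 122.6 and 83.4 in untreated tissue, 112.8, 81.8, 76.2 and 49.0 on hCG day 10, and 71.9, 103.7, 80.0 and 53.3 on day 12. They were 40.2, 52.2, 75.7 and 62.0 on day 15 and 40.6, 24.4, 30.4 and 20.3 on day 18. Arrays of hCG days 15 and 18 all lay below the untreated arrays, and those of day 18 also lay below all of hCG day 10.

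On hCG day 18 TCF7 fell by 1.47 ± 0.21 against untreated (log2, SE; adjusted p = 0.00039 in limma), 2.78-fold on the scale of signal + 16, with an adjusted p of 0.0022 over the 5 groups. Between hCG days 10 and 18 it fell by 1.07 ± 0.21 (adjusted p = 0.0046). The log2 change was -0.40 on hCG day 10 (adjusted p = 0.46), -0.43 on day 12 (adjusted p = 0.49) and -0.76 on day 15 (adjusted p = 0.092). The change on hCG day 18 against untreated passed under each of the 31 alternatives run, with adjusted p-values up to 0.049. That highest value came with the mean over the 3 TCF7 probe sets, where the log2 change was -0.60. The other 2 probe sets had changes of -0.53 and 0.20, neither past the threshold, and with the mean the fall from hCG day 10 to day 18 was no longer called (adjusted p = 0.39).

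Lymphocyte markers were set beside TCF7. Of 8 listed, 5 were measured, and the T cell genes CD3D, CD3E and CD2 were not among them. CD4 and CD8A were above the array median on all arrays, NKG7 on 12, and the B cell genes MS4A1 and CD79A on none. Their summed signal was 174.1 to 332.1 in untreated tissue, 198.6 to 272 on hCG day 10 and 121.2 to 306 on day 12. Later it was 178.6 to 359.2 on day 15 and 262.5 to 445.6 on day 18. None of the 5 passed on hCG day 18 against untreated in limma (CD4 was under an unadjusted p of 0.05, with a log2 change of 0.78), and the others had log2 changes of -0.20 (CD8A), 0.21 (NKG7), 0.15 (CD79A) and 0.33 (MS4A1). The part of lymphocytes in the TCF7 result was not tested, nor was which cells the CD4 signal came from. Of 7 measured macrophage markers, 2 passed as higher on hCG day 18 against untreated, CSF1R and VSIG4, where 2.78% of all genes did. From hCG day 10 to day 18 these and CD14 passed as higher, where 2.87% of all genes did. The other macrophage markers passed in neither comparison. MARCO was above the array median on no array. The summed macrophage signal was 1871 to 5131 in untreated tissue and 3992 to 7612 on hCG day 18. The ranges between were 2457 to 3290, 2369 to 3316 and 2816 to 4732 on hCG days 10, 12 and 15. Their part in the WNT pathway values of hCG day 18 was not tested.

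TCF7L2, the TCF factor with the highest signal, had hCG day 10 signals of 900.9, 924.5, 762.3 and 920.8 and hCG day 18 signals of 1428, 1273, 948 and 1460. These groups did not overlap, but the log2 change of 0.52 ± 0.17 had an adjusted p of 0.083 in limma. All 6 probe sets of TCF7L2 had positive changes in that comparison, and none passed. TCF7L1 stayed between 165.8 and 272.9, with a log2 change of -0.03 ± 0.15 on hCG day 18 against untreated. AXIN2, a direct target of beta-catenin that feeds back on the pathway, was near the array median, at 50.7, 33.6, 45.3 and 78.8 in untreated tissue and 47.9, 49.9, 52.5 and 57.4 on hCG day 18. Its log2 change was 0.03 ± 0.20, with an interval of -0.38 to 0.45 (95%). DVL2, an adaptor that carries the signal from frizzled receptors, lay between 62.1 and 126.1 on all arrays and passed no comparison.

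**Figure D4:**
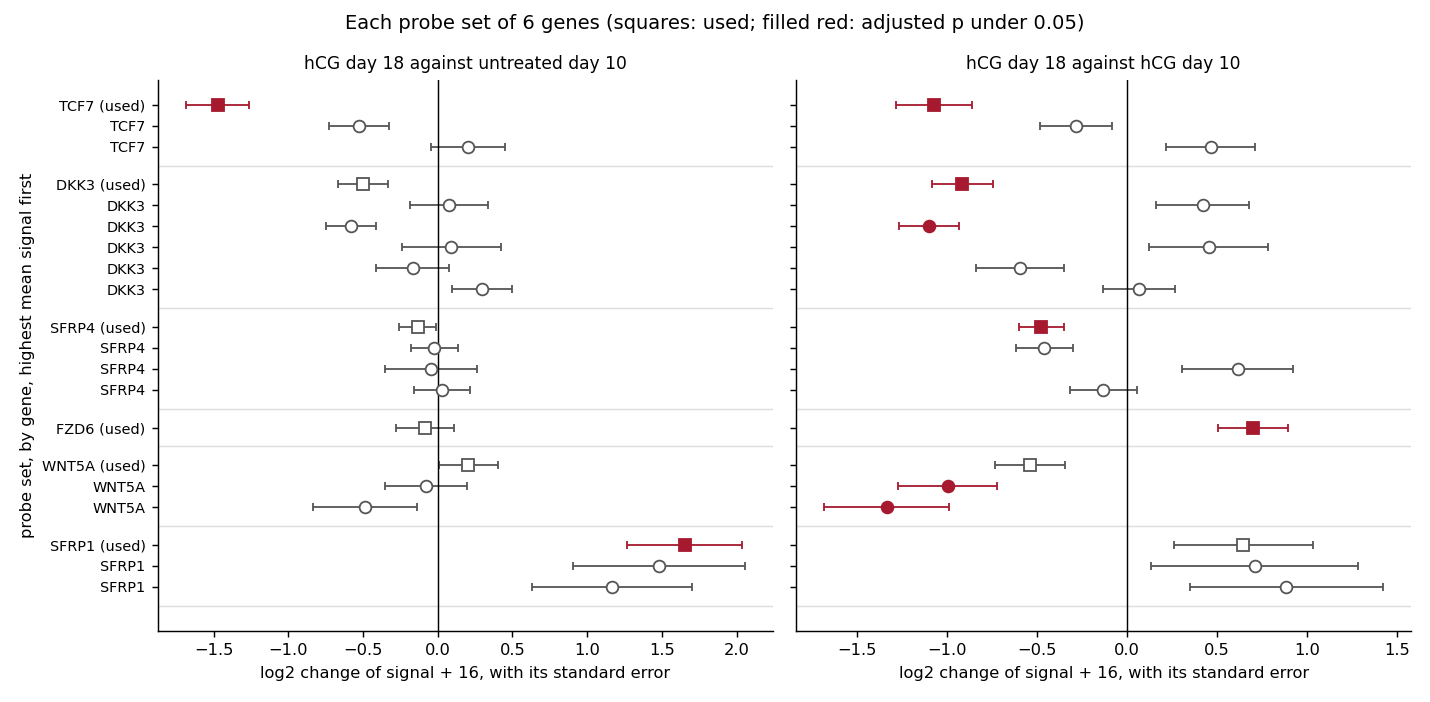
Log2 change of signal + 16 with its standard error for every probe set of TCF7, DKK3, SFRP4, FZD6, WNT5A and SFRP1, on hCG day 18 against untreated (left) and against hCG day 10 (right). Squares are the probe sets used, circles the others, and filled red marks an adjusted p under 0.05. The 6 probe sets of DKK3 split into 3 below and 3 above 0 on the right, where 2 of 3 probe sets of WNT5A passed, neither of them the one used.

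On hCG day 18 against untreated, 7 of 47 genes (14.9%) had groups that did not overlap, 3 higher (FZD8, LGR4 and SFRP1) and 4 lower (DKK3, FZD4, TCF7 and WNT10B). Over all genes the share was 15.7%, made up of 6.83% higher and 8.89% lower. On hCG day 10 there were 8 (17.0%), LGR4, RSPO2, SFRP1, SFRP4 and WNT5A higher and FZD4, FZD6 and WNT5B lower, against 10.5% of all genes (5.85% higher and 4.61% lower). Between hCG days 10 and 18 there were 8 (17.0%), FZD6, FZD8 and TCF7L2 higher and DKK3, FZD10, SFRP2, SFRP4 and TCF7 lower, against 15.7% of all genes, 6.2% higher and 9.55% lower. Against untreated, hCG day 12 had 5 such genes (10.6%, against 6.52% of all genes) and hCG day 15 had 2 (4.26%, against 9.04%). The steps from day 10 to 12, day 12 to 15 and day 15 to 18 had 2, 2 and 1 (4.26%, 4.26% and 2.13%), against 5.8%, 3% and 4.32% of all genes.

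Beyond these 47 genes, 137 further genes of WNT signalling in 10 lists were followed, of which 109 were measured. At least 1 test was passed by 17 of the 109 (15.6%), beside 11.6% of all genes. The lists were chosen with earlier results of these data known. This share and those of single lists below therefore do not test whether WNT genes changed more than others. No member passed among 3 genes of ligand processing, 18 of the beta-catenin destruction complex and 6 junctional partners of beta-catenin. In these lists the smallest adjusted p over the 5 groups belonged to PORCN (0.35), which attaches lipid to WNT ligands, TNKS (0.32), a polymerase that marks axin for removal, and CTNND1 (0.32), which binds cadherins. In limma's F test 0 genes of these 3 lists were under an unadjusted p of 0.05, against 22.9% of all genes. On hCG day 18 against untreated the counts were 1 of 3, 0 of 18 and 1 of 6, against 21.1%.

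At the membrane, 3 of 5 measured genes in a list of receptor turnover and membrane inhibitors passed (60%, against 11.6% of all genes). With so short a list, chosen with earlier results known, this share is no evidence of enrichment. APCDD1, a membrane inhibitor of WNT signalling, read 1025, 1153, 1026 and 914 in untreated tissue and 1752, 2170, 1653 and 2577 on hCG day 10. It then read 1147, 1077, 933.4 and 864 on day 12, 597.1, 802.4, 667.8 and 599.2 on day 15, and 509, 578.9, 466.6 and 490.8 on day 18. The hCG day 10 arrays lay above all others, and those of days 15 and 18 lay below all untreated ones. APCDD1 rose by 0.96 ± 0.15 on hCG day 10 (log2, SE; adjusted p = 0.0024 in limma) and fell by 0.99 ± 0.15 on day 18 against untreated (adjusted p = 0.00053). Between hCG days 10 and 18 it fell by 1.94 ± 0.15 (adjusted p = 6.1e-07), and this was called in each of the alternatives run.

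RNF43, a ubiquitin ligase that removes frizzled receptors from the membrane, rose by 0.56 ± 0.13 from hCG day 10 to day 18 (adjusted p = 0.012), with a mean signal of 2030 ± 251 (SD, 4 arrays) before and 2989 ± 225 after. Against untreated it rose by 0.46 ± 0.13 on hCG day 18 (adjusted p = 0.047 in limma). The call from hCG day 10 to day 18 ended with median-centring (adjusted p = 0.092) and with the mean over its probe sets (adjusted p = 0.071). CAV1, the caveolae protein that takes part in LRP6 uptake, fell by 0.56 ± 0.13 on hCG day 18 against untreated (adjusted p = 0.017), from 2956 ± 192 to 2010 ± 206. It was not called without untreated replicate 3 or hCG day 18 replicate 2 or 4 (adjusted p = 0.053 to 0.056), nor with the mean over its probe sets (adjusted p = 0.099).

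Co-receptors outside the 47 genes gave 3 of 12 (25%, against 11.6% of all genes). SDC1, a heparan sulphate proteoglycan that binds WNT ligands, read 346.6, 470.2, 422.7 and 581.1 on hCG day 10 and 1243, 2013, 1033 and 1397 on day 18, with 551.4 to 955.4 in untreated tissue. It rose by 1.59 ± 0.20 from hCG day 10 to day 18 (adjusted p = 9.3e-05 in limma) and by 0.97 ± 0.20 against untreated (adjusted p = 0.0095). ROR2, a receptor for WNT5A, rose by 1.03 ± 0.28 from hCG day 10 to day 18 (adjusted p = 0.04), from 132.4 to 392.5 to 348.8 to 666.1, ranges that overlap. It was not called without any 1 of hCG day 10 replicates 1, 2 and 4 and hCG day 18 replicates 1, 2 and 4 (adjusted p = 0.072 to 0.13), with a pseudocount of 1 (adjusted p = 0.066), with median-centring (adjusted p = 0.082) or with the 8 arrays alone (adjusted p = 0.1). LRP4, a relative of LRP5 and LRP6, passed only the F test over the 5 groups (adjusted p = 0.036). Its mean was 161.3 ± 15.6 in untreated tissue and 99.6 ± 20.6 on hCG day 18, with an adjusted p of 0.051 for that pair. The pair was called without hCG day 10 replicate 4, hCG day 12 replicate 3 or 4, hCG day 15 replicate 2 or 3, or hCG day 18 replicate 4 (adjusted p = 0.036 to 0.05, the last rounded up).

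**Figure D5:**
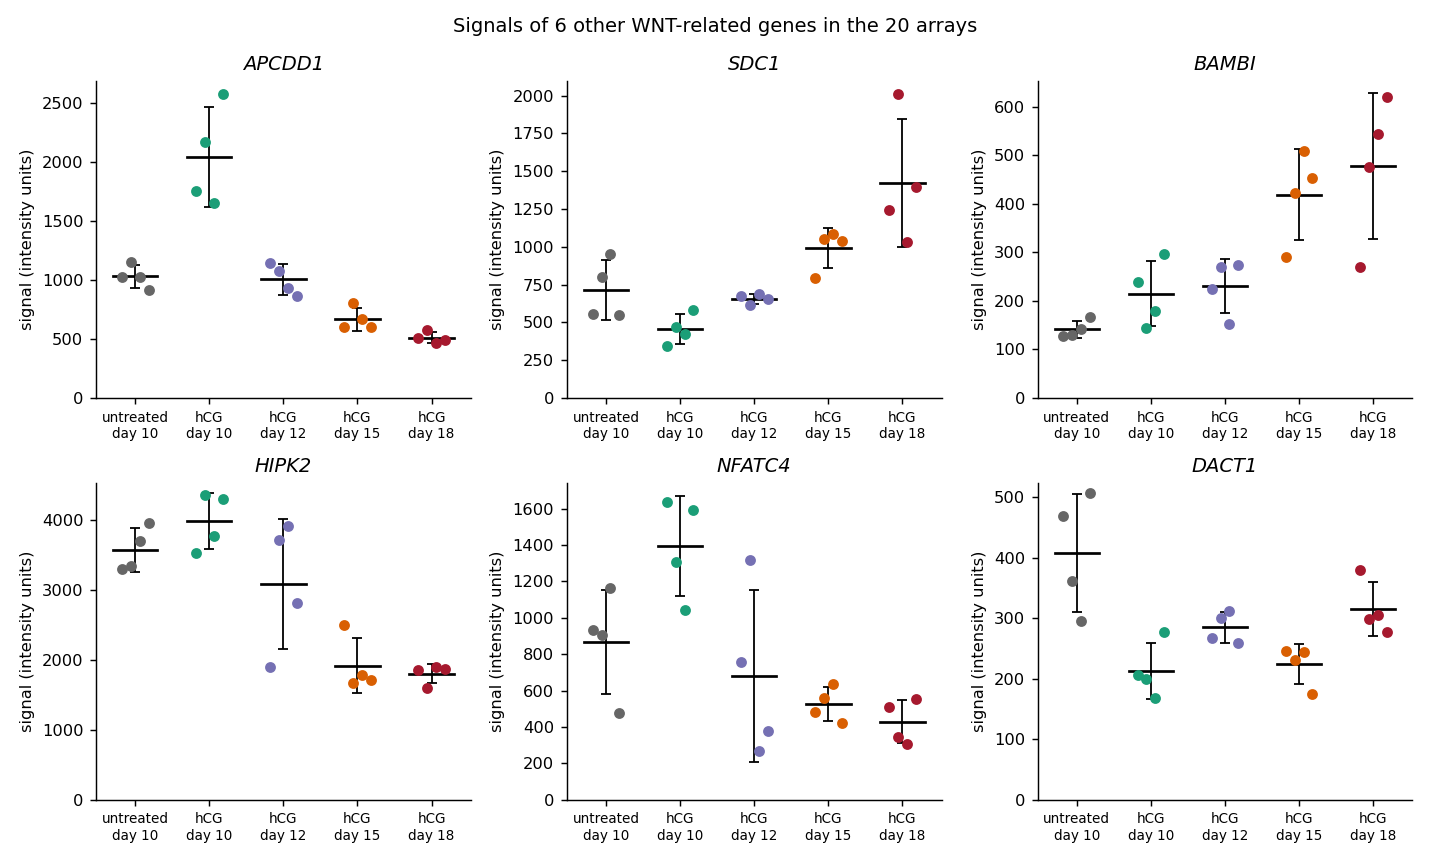
Signal in intensity units of APCDD1, SDC1, BAMBI, HIPK2, NFATC4 and DACT1, genes of WNT signalling outside the 47, in each of the 20 arrays (points), with group mean (thick line) and SD (bars). APCDD1 and NFATC4 are highest on hCG day 10 and lowest on day 18, SDC1 and BAMBI are highest on day 18, and DACT1 is highest in untreated tissue.

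Of 15 measured genes often used as WNT targets, 3 passed (20%, against 11.6% of all genes), and they moved in different directions. BAMBI, a decoy receptor of the TGF-beta family, read 128.4, 128.9, 141.4 and 167.2 in untreated tissue and 270.5, 476.8, 543.3 and 620.5 on hCG day 18. It rose by 1.60 ± 0.25 (log2, SE; adjusted p = 0.00085 in limma), and by 1.44 ± 0.25 on hCG day 15 (adjusted p = 0.0056). MMP7, a matrix metalloproteinase, fell by 0.83 ± 0.17 from hCG day 10 to day 18 (adjusted p = 0.0071), and was not called with the mean over its probe sets (adjusted p = 0.65). SOX9, a transcription factor, was dim in every group. It read 31.7, 28.4, 22.2 and 47.9 on hCG day 10, where 3 of 4 arrays were below their array median, and 3.01 to 12.0 in untreated tissue. SOX9 rose by 1.18 ± 0.18 on hCG day 10 (adjusted p = 0.0027) and fell by 1.30 ± 0.18 from hCG day 10 to day 18 (adjusted p = 0.00023). The median log2 change of the 15 target genes against untreated was 0.02, -0.11, -0.13 and -0.30 for hCG days 10, 12, 15 and 18, beside -0.01, -0.01, -0.03 and -0.03 over all genes. Between hCG days 10 and 18 it was -0.04, beside -0.01.

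Among 15 nuclear partners, 2 passed (13.3%, near the 11.6% of all genes). HIPK2, a kinase of the nucleus that phosphorylates TCF factors, had means of 3982 ± 400 on hCG day 10 and 1801 ± 138 on day 18, and fell by 1.14 ± 0.19 (adjusted p = 0.00093 in limma). TBL1X, a co-regulator bound by beta-catenin, rose by 0.83 ± 0.15 on hCG day 10 (adjusted p = 0.011), from 970.2 to 1078 in untreated tissue to 1482 to 2443, and was not called with the mean over its probe sets (adjusted p = 0.11) or the 8 arrays alone (adjusted p = 0.074). Of 7 further secreted regulators, 1 passed (14.3%, against 11.6% of all genes). It was IGFBP4, which binds insulin-like growth factors and also frizzled receptors. IGFBP4 rose by 0.76 ± 0.16 on hCG day 18 against untreated (adjusted p = 0.011). With the 8 arrays alone its adjusted p was 0.059.

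Of 2 measured DACT genes, 1 passed (50%, against 11.6% of all genes). DACT1, an inhibitor that binds dishevelled, fell by 0.88 ± 0.17 on hCG day 10 (adjusted p = 0.015 in limma), from 469, 362.1, 295 and 507.3 to 206.5, 199.6, 167.6 and 276.6. The fall on hCG day 10 was not called without untreated replicate 1 (adjusted p = 0.054), untreated replicate 4 (adjusted p = 0.065) or hCG day 10 replicate 3 (adjusted p = 0.069), nor with the 8 arrays alone (adjusted p = 0.13). DACT1 was also called lower on hCG day 15 against untreated, at 175.4 to 246.4. In the polarity and calcium branch 4 of 27 measured genes passed (14.8%, against 11.6% of all genes). All 4 were called lower on hCG day 18, 3 of them against hCG day 10 and 1 against untreated. In both comparisons lower calls also outnumbered higher ones over all genes. NFATC4, a calcium-responsive transcription factor, fell by 1.68 ± 0.37 from hCG day 10 (adjusted p = 0.0093), from 1395 ± 275 to 428.9 ± 119, and had an adjusted p of 0.054 with the mean over its probe sets. PRICKLE2, a planar polarity protein, fell by 1.39 ± 0.31 (adjusted p = 0.012), and PRKCA, the alpha form of protein kinase C, fell by 1.32 ± 0.25 (adjusted p = 0.0029). Untreated arrays read 477.9 to 1164 for NFATC4, 110.5 to 197.2 for PRICKLE2 and 272 to 509.9 for PRKCA. On hCG day 18 these genes read 308.2 to 551.9, 69.5 to 141.2 and 259.6 to 324, so each overlapped untreated tissue.

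CAMK2D, a calcium and calmodulin dependent kinase, fell by 0.57 ± 0.16 on hCG day 18 against untreated (adjusted p = 0.046 in limma). It was not called without the 3 arrays that stood apart (adjusted p = 0.11). It was also not called without any 1 of untreated replicates 1, 2 and 3, hCG day 10 replicates 2, 3 and 4, hCG day 12 replicates 3 and 4, and hCG day 18 replicates 2, 3 and 4 (adjusted p = 0.053 to 0.14). With a pseudocount of 1, median-centring, the mean over probe sets or the 8 arrays alone, the adjusted p of CAMK2D was 0.094, 0.095, 0.14 and 0.1.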

How the data were processed

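RNA extracted with TRIzol was measured as biotin-labelled cRNA on 20 Affymetrix rhesus arrays. The deposited values are linear intensity signals per probe set that the authors made with GCOS, per the submitters' processing notes; its version and settings are not given in the sources used here. Every array had a 2% trimmed mean of 200.013 to 200.015. Of 52865 probe sets, 158 controls were left out. Symbols came from the platform annotation (24956 probe sets with 1 symbol, 361 with several, 27390 with none), and all 47 matched RefSeq by gene ID. The log2 of signal + 16 was fitted with limma 3.58.1 in R 4.3.3, with 1 mean per group over all 20 arrays, and Benjamini-Hochberg adjustment over 52707 probe sets in each comparison, at a threshold of 0.05. Folds are on the scale of signal + 16. The procedure was tested on simulated data. The members and gene lists were chosen with earlier results of these data known. Named in full are the members past the threshold, others by smallest F p up to 12, TCF7L2 and AXIN2, the brightest member of each role, and up to 4 passing genes per further list (1 as values where none passed). Alternatives were pseudocounts of 1 and 64, median-centring, quantile scaling, only the upper 50% of probe sets, weights for arrays, a trend in the variance, a block for replicate number, averaging a gene's probe sets, the 8 arrays of a comparison alone and leaving out each array; leaving out 3 arrays together was chosen after seeing the data. Precision is limited by the number of arrays. Figures were drawn with matplotlib 3.10.9.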

Additional observations from a re-analysis of the deposited data

Results flagged for a closer look

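For DKK3 on hCG day 18, replicate 4 had a signal of 1494.41, below the other 3 arrays, which lay between 1715.51 and 1759.81. Its gap to the next array took up 0.844 of the group's range, above Dixon's 95% critical value for 4 arrays. Of 60 groups of values checked in this way 1 passed, and chance alone marks about 1 in 20. Between the groups of hCG day 18 and hCG day 10, each against untreated, 4 genes differed by a direct test of the difference in limma, and luteal day, days of hCG and dose cannot be told apart in it. The log2 difference was -1.07 for TCF7 (adjusted p = 0.0046), -0.92 for DKK3 (adjusted p = 0.0028), 0.70 for FZD6 (adjusted p = 0.04) and -0.48 for SFRP4 (adjusted p = 0.031). These differences are those between hCG day 18 and hCG day 10 given above.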

How the results depend on the processing

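For 29 named genes 958 values were compared over 31 alternatives: 861 kept their direction and side of the threshold, 69 lost a call, 28 gained one, and 0 changed direction. Each gene was followed in its comparison with the smallest p, and members also in their other passing comparisons. Values chosen in this way seldom reverse, so the counts do not speak for other comparisons or for single probe sets. Genes differing over the 5 groups numbered 2 in the reported fit, 1 with a pseudocount of 1, 0 with the mean over probe sets, and 1 to 4 with single arrays left out (1 without hCG day 10 replicate 1 or 2, and 4 without untreated replicate 3 or hCG day 15 replicate 3). On hCG day 10, 0 became 1 with a pseudocount of 64 (FZD6), 1 with median-centring (WNT5A), 2 in the upper 50% of probe sets, 1 with a variance trend, 1 with array weights, and 0 to 2 with single arrays left out (2 without hCG day 15 replicate 2 or 3). On hCG day 15 leaving out single arrays gave 0 to 1 (1 without untreated replicate 3, FZD10, or without hCG day 15 replicate 3, LGR4), and on hCG day 18 the mean over probe sets gave 1 and single arrays left out gave 1 to 3, in place of 2. From hCG day 10 to day 18, 4 became 2 with a pseudocount of 1, 2 with median-centring, 2 with the mean over probe sets (FZD6 and WNT5A) and 2 to 4 with single arrays left out. The cause was not tested.

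Whether the replicate numbers pair the arrays was not settled. Deviations of same-numbered arrays had a mean correlation of 0.0358 (40 pairs, -0.281 to 0.363), with 14 pairs over 0.1. Different-numbered ones had a mean of -0.0118 (120 pairs), with 24 over 0.1. As deviations from a group mean these values depend on each other, so the averages cannot decide it. With a replicate block the counts were 2 over the 5 groups, 3 on hCG day 18 (WNT10B added, adjusted p = 0.046) and 4 from hCG day 10 to day 18, where TCF7L2 was called and FZD6 was not (adjusted p = 0.052). ROR2 (adjusted p = 0.057) and CAMK2D (adjusted p = 0.067) were not called with it either.

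Signals near background limit what can be seen: 17 of the 47 genes never exceeded the array median, and a test that they miss shows little.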
